A study of Mus musculus with 3 samples.

Results

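The nuclear genes of oxidative phosphorylation described here code mainly for subunits of respiratory complexes I, III and IV and of ATP synthase, complex V. They were taken by symbol: symbols that start with Ndufa, Ndufb, Ndufc, Ndufs or Ndufv and a number, with Cox4, Cox5, Cox6, Cox7 or Cox8, with Uqcr or with Atp5, leaving out the Ndufaf assembly factors, and present in all 3 deposited expression tables. This gave 77 of the 15904 genes found in all 3 tables: 37 for complex I, 8 for complex III, 16 for complex IV and 16 for complex V. Ndufa4 was kept in complex I by its symbol, although its protein is known as a subunit of complex IV. Cox7a2l and Atp5s were likewise counted in complexes IV and V by symbol alone. The 13 protein-coding genes of the mitochondrial genome, whose symbols start with mt-, were measured in the same cells for comparison.

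The cells came from female C57Bl/6 mice aged 2 to 3 months that were heterozygous or homozygous mutant for a chemokine receptor gene. 4 hashed samples (each marked with its own antibody barcode before pooling) were brains of naive mice, which bore no metastases: 2 of CCR2+/- and 2 of CCR2-/- mice. 4 were blood: Het and Hom samples of naive mice, and Het and Hom samples of mice that bore brain metastases about 2 weeks after E0771 cells, a mouse mammary carcinoma line, were injected into the carotid artery. The submitters name Cx3cr1 and CCR2 as the mutated genes of the whole series, and which of them Het and Hom stand for in blood was not given in the sources used here. No wild-type mice were among the samples, so CCR2+/- and Het are the controls. Brains were perfused, 1 hemisphere was dissociated and immune cells were enriched on a Percoll gradient. Blood was treated to lyse red cells. All 8 samples were run as 1 single-cell 3′ library with 35 antibodies. The labels do not say that each hashtag was 1 animal, so a p-value measures only the spread between these samples, which may be technical.

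Oxidative phosphorylation passes electrons from NADH through complexes I, III and IV to oxygen, pumps protons across the inner mitochondrial membrane and uses their return flow to make ATP. Each of these complexes is a mosaic: some of its subunits are coded by mitochondrial DNA and the others by nuclear genes. A working complex therefore needs transcripts from both genomes. Several complex IV subunits have a common and a tissue-restricted gene, such as Cox8a and Cox8b or Cox6b1 and Cox6b2. Choroid plexus epithelium, which secretes cerebrospinal fluid, is rich in mitochondria, whereas mature neutrophils rely mainly on glycolysis.

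The promoters of the pairs Cox8a and Cox8b, and Cox6b1 and Cox6b2, are shown because the common gene of each pair was detected in every brain cluster and the restricted gene was highest in the choroid plexus-like cells. Each runs from 250 bases before to 50 bases after the start of the gene, 5′ to 3′ on the gene's own strand, from RefSeq on the build GRCm38.p6. Cox8a lies at chr19:7217567-7217866, Cox8b at chr7:140900397-140900696, Cox6b1 at chr7:30626065-30626364 and Cox6b2 at chr7:4753045-4753344, all on the minus strand. Capitals mark CTTCCGG, the ETS core motif CCGGAAG read on the opposite strand.
Cox8a: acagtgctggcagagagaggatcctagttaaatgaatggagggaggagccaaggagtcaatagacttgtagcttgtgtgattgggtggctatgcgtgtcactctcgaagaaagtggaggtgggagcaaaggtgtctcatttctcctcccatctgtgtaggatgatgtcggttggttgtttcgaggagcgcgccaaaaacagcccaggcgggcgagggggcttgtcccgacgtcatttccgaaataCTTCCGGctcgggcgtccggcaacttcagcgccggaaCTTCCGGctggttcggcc
Cox8b: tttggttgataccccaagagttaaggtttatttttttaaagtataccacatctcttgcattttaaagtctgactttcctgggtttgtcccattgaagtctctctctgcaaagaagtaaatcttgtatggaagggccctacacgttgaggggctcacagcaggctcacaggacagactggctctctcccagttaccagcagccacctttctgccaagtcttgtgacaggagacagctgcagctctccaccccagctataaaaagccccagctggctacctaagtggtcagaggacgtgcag
Cox6b1: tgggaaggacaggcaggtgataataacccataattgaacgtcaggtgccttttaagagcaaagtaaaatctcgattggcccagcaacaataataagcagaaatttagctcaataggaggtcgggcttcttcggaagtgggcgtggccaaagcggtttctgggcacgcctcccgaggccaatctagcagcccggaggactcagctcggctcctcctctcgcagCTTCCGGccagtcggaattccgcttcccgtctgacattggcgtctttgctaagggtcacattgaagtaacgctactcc
Cox6b2: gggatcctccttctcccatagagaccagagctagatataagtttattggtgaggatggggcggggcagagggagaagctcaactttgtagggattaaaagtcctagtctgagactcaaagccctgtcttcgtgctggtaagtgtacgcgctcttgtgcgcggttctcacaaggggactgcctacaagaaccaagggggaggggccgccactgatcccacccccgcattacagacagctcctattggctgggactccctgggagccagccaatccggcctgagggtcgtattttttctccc
The Cox8a window held the ETS letters 2 times and the Cox6b1 window 1 time, and the windows of Cox8b and Cox6b2 held none. The pair Cox7a2 and Cox7a1 met the same description and is not shown. Neither the Cox7a2 nor the Cox7a1 promoter held the ETS letters. Promoters were found for 63 of the 77 genes. With both strands searched, CCGGAAG was in the promoters of 14 of the 63 genes (22.2%), against 9.93% of 27025 genes with a promoter of the same length. The NRF1 core GCATGCG was in 10 of 63 (15.9%, against 4.01%) and the YY1 core ATGGCGG in 10 of 63 (15.9%, against 4.69%). At least 1 of the 3 was in 28 of 63 (44.4%, against 16.6%). The YY1 letters were in 8 of 32 complex I promoters and in 0 of 12 complex IV promoters. These letter matches describe the windows and are not evidence of binding.

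The values are corrected molecule counts, rebuilt from the deposited natural-log values, which had been adjusted for the depth of each cell. A level is the corrected count of a gene per 10000 corrected counts of all genes, summed over the cells of a cluster, and is not divided by transcript length. Clusters are those of the authors, and names ending in -like rest on marker genes that stood at least 2.0-fold above the other clusters. 11063 of the 16328 deposited cells were kept, those whose barcode stood in 1 table and whose hashtag counts came mostly from that table; 2401 of 13757 barcodes stood in more than 1. No doublet caller was run. The median number of raw molecules per cell ran from 1563 to 53703 in brain clusters and from 770 to 13757 in the blood clusters with at least 50 cells. Clusters were drawn on all genes, so differences between clusters are described without a test. The 3 tables were normalized separately: in 845 cells that stand in both blood tables, the 77 genes summed to 141 in the naive table and 142 in the other, as log2 ratios from -0.16 to 0.21 for 72 of them.

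Choroid plexus-like cells held the highest levels of these genes in the brain, and microglia-like and neutrophil-like cells the lowest among the clusters given a cell type here; the low-RNA cluster 0 stood as low, at 88.8. In the choroid plexus-like cluster 8 (29 cells with Ttr, Kl, Clic6 and Folr1), the 77 genes summed to 535 per 10000. Smooth muscle-like cells (cluster 7, 47 cells with Acta2, Tagln and Myh11) reached 246. Microglia-like cells (cluster 1, 1232 cells) stood at 89.1 and neutrophil-like cells (cluster 2, 36 cells) at 88.4. The other named clusters lay between these. The endothelial, mural and fibroblast cluster 6 (301 cells, led by Flt1, Ly6c1 and Cldn5) stood at 194. In it, 8 of 8 endothelial, 7 of 10 mural and 6 of 7 fibroblast markers were at least 2.0-fold above the other clusters. The T and NK cluster 4 (248 cells, with haemoglobin genes among its leading genes) stood at 178. The B-like cluster 5 stood at 171 and the macrophage and dendritic cluster 3 (191 cells, led by H2-Eb1, Cd74 and Apoe) at 157.

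The choroid plexus-like excess was seen in every brain sample. With the 2 CCR2+/- brains given first and the 2 CCR2-/- brains after them, as throughout, the sum was 543, 456, 544 and 562, from 8, 4, 10 and 7 cells. The smooth muscle-like sums were 223, 250, 264 and 265, so every choroid plexus-like value stood above every smooth muscle-like value. These choroid plexus-like cells were also the deepest of the brain, with a median of 53703 raw molecules against 10044 in microglia-like cells, and the depth correction had reduced their counts most. Cluster 8 held 1 cell whose raw total lay within 0.67 to 1.5 times its corrected total, so the level could not be repeated in cells of near-equal depth.

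The mitochondrial genes followed the nuclear ones in some pairs of brain clusters and not in others. Against microglia-like cells, the median log2 differences of the nuclear and the mt- genes were 1.14 and 1.03 in cluster 6 and 0.81 and 0.64 in cluster 4. In the smooth muscle-like cluster the 13 mt- genes summed to 1010 and in the choroid plexus-like cluster to 876, so the nuclear sum was 0.244 times the mitochondrial sum in smooth muscle-like cells and 0.611 times in choroid plexus-like cells. Microglia-like cells had an mt- sum of 219 and a ratio of 0.407, and the neutrophil-like cells an mt- sum of 97.8 and a ratio of 0.904. Between smooth muscle-like cells and cluster 6, the median log2 difference was 0.33 over the nuclear genes (56 of 74 higher) and 1.27 over the mt- genes (12 of 13 higher), against -0.49 over all genes.

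In blood, neutrophils were at the low end and monocytes at the high end among the named clusters. In naive blood the nuclear sum was 97 in neutrophil-like cells (1172 cells), 157 in B-like cells (1243), 161 in the T and NK cluster (479) and 205 in monocyte-like cells (357). In metastasis-bearing mice it was 106, 142, 147 for T-like, 206 for NK-like and 240 for monocyte-like cells. The mt- sums set neutrophils further apart than the nuclear sums, with 74.3 in naive and 73.8 in metastasis-bearing blood, against 504 and 501 in B-like cells. Neutrophils were therefore the only named blood clusters with more nuclear than mitochondrial counts, with ratios of 1.31 and 1.44, and the ratio in B-like cells was 0.311 and 0.284. In the neutrophil and B-like cells of near-equal depth, the nuclear sums were 93.7 and 159 and the mt- sums 57.7 and 500 in naive blood.

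**Figure D1:**
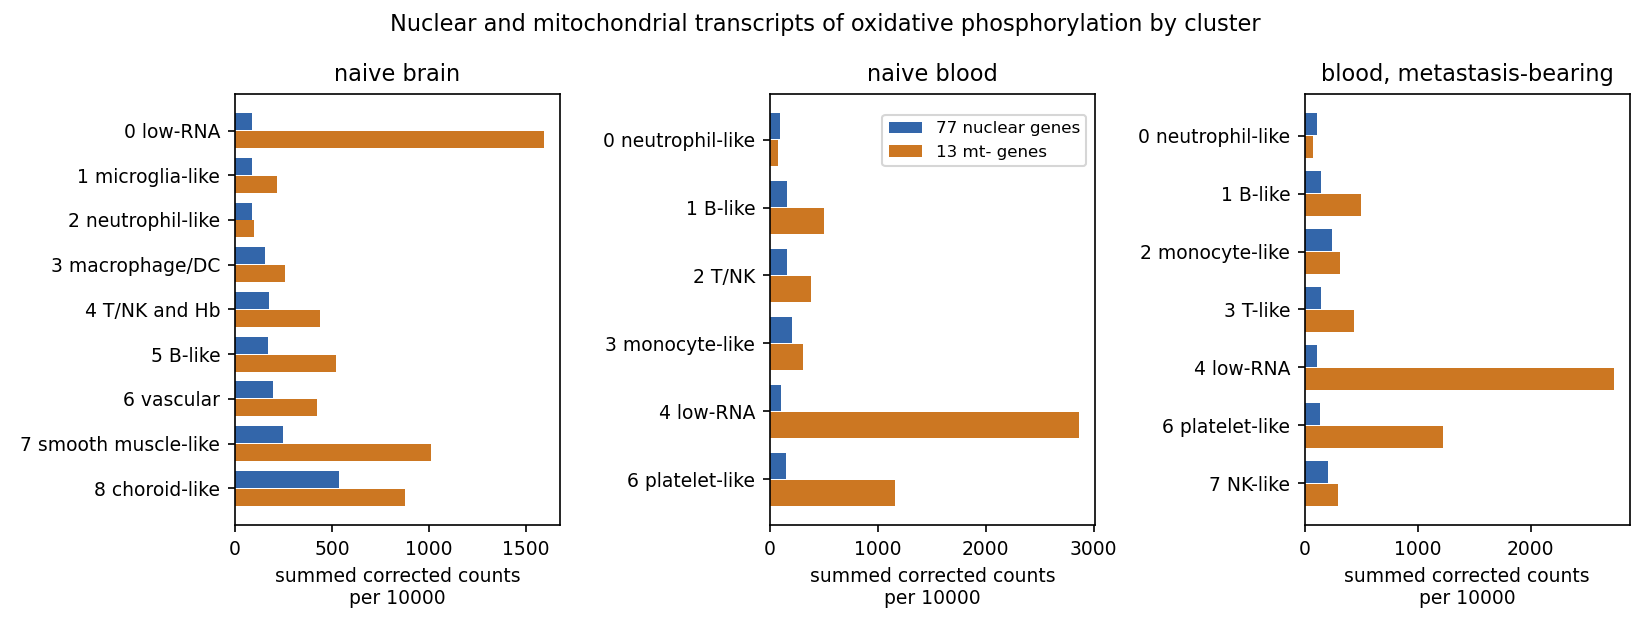
Summed corrected counts per 10000 (horizontal axis, linear) of the 77 nuclear genes (blue) and the 13 mt- genes (orange) in each cluster (vertical axis) of naive brain, naive blood and blood of metastasis-bearing mice, over the clear cells of each cluster. The nuclear bar is longest in the choroid-like cluster at 535, and the orange bar is shorter than the blue one only in the neutrophil-like clusters of blood.

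Platelet-like and low-RNA clusters had few molecules per cell. The low-RNA clusters held mt- sums of 1594 in brain cluster 0, 2867 in naive and 2739 in metastasis-bearing blood, and nuclear sums of 88.8, 106 and 112. In brain cluster 0, which is led by mt-Nd2, mt-Nd4, Xist and Neat1 and has a median of 1563 raw molecules, 99.3% of cells carried corrected counts at more genes than raw counts, so that nuclear sums there are partly made by the depth correction. Platelet-like cells had a nuclear sum of 147 and an mt- sum of 1162 in naive blood, at a median of 770 raw molecules. For these clusters the levels are given without further reading.

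Complex I, which oxidises NADH, supplied 35.8% of the nuclear sum in microglia-like cells and 28% in naive neutrophils. Its members with the highest mean level over brain clusters were Ndufa4 at 5.59, Ndufa13, a membrane-arm subunit, at 4.05 and Ndufa2 at 2.92, and the lowest was Ndufa4l2 at 0.0601. Ndufa4 and Ndufa13 also led in both blood tables. Ndufa4 stood at 1.66 in microglia-like and 21.6 in choroid plexus-like cells. In naive blood it was lowest in neutrophils, at 1.04, stood at 4.29 in monocyte-like cells and was highest in the shallow platelet-like cells, at 6.27. Ndufa11, a membrane-arm subunit, varied most among well-detected complex I members of the brain: 0.199 in cluster 0, 0.755 in microglia-like and 9.92 in choroid plexus-like cells. It was also low in naive neutrophils, at 0.149 against 1.49 in B-like and 1.74 in monocyte-like cells. Ndufc1 differed 44.5-fold between its highest and lowest brain cluster, and Ndufa5, Ndufv3 and Ndufb6, further small subunits, differed 38.4-fold, 37.9-fold and 30.2-fold. In all 4 of these the lowest cluster was the low-RNA cluster 0 and the highest was cluster 8.

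Complex III passes electrons from ubiquinol to cytochrome c. Uqcrh, the hinge subunit at the cytochrome c binding site, stood at 2.40 in microglia-like and 11 in choroid plexus-like cells. The same clusters differed more for small subunits than for the core ones. Uqcrb stood at 1.5 and 10.4, Uqcr10 at 0.875 and 11.9 and Uqcr11 at 1.19 and 12.3, whereas the core subunits Uqcrc1 and Uqcrc2 stood at 0.756 and 1.69 and at 0.807 and 2.25. In naive blood Uqcrb was 0.482 in neutrophils, 2.06 in B-like and 3.25 in monocyte-like cells.

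Complex IV, cytochrome c oxidase, hands electrons to oxygen, and made up a larger part of both sums in neutrophils than in B-like, T and NK cells. Its nuclear genes supplied 32.4% of the nuclear sum in naive neutrophils and 26.3% in naive B-like cells. Its mt- genes, mt-Co1, mt-Co2 and mt-Co3, supplied 56.9% of the mt- sum in naive neutrophils, 61.3% in those of metastasis-bearing mice and 59.1% in the neutrophil-like cells of the brain, against 51.0% in naive B-like, 44.0% in microglia-like and 38% in smooth muscle-like cells. Monocyte-like cells came near the neutrophils for the mt- share, at 55.8% in naive blood. The mt- complex I genes supplied 19.1%, 16.5% and 15.8% in the same neutrophils. This was near the shares of other blood cells, such as 19.1% in the naive T and NK cluster, 17.8% in naive and 16.0% in metastasis-bearing monocyte-like cells, and below the 27.3% of microglia-like cells. The complex IV genes remained low in neutrophils as levels: mt-Co1 was 17.8 in naive neutrophils and 82.9 in B-like cells, mt-Co3 13.9 and 106, and the complex I gene mt-Nd1 3.38 and 30.4.

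**Figure D2:**
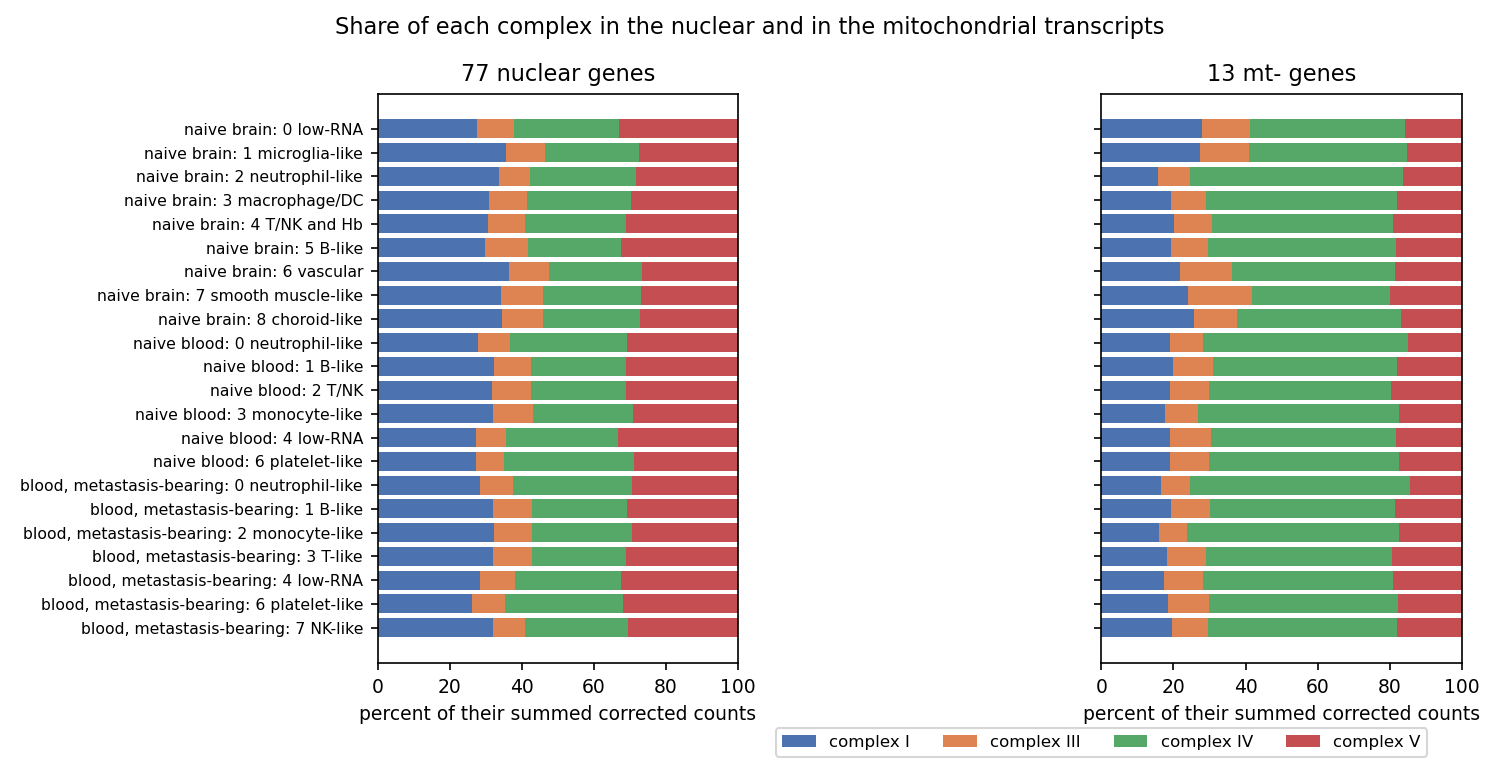
Share (percent, horizontal axis) of complexes I, III, IV and V in the summed corrected counts of the 77 nuclear genes (left) and the 13 mt- genes (right), for each cluster of the 3 tables (vertical axis). Among the mt- genes, complex IV (green) is widest in the neutrophil-like cells of metastasis-bearing mice, 61.3%, and narrowest in smooth muscle-like brain cells, 38%.

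Single complex IV genes differed in how far they followed the cell types. Cox4i1, the common form of subunit 4, stood at 4.29 in microglia-like, 9.20 in smooth muscle-like and 21.6 in choroid plexus-like cells. Cox8a, the common form of subunit 8, stood at 3.69, 13.3 and 30.9. In naive blood Cox8a was an exception to the low neutrophil levels, with 7.88 in neutrophils, 6.46 in B-like, 6.08 in T and NK and 7.59 in monocyte-like cells. Cox7a2l was among the 7 of 77 genes whose highest brain cluster was not the choroid plexus-like one: it was 1.77 there and 4.98 in B-like cells. Ndufb4, a membrane-arm subunit of complex I, was 1.65 there and 2.67 in cluster 6, and Atp5g2 was 4.34 there and 5.24 in B-like cells. The other 4 were Atp5s and the restricted genes Cox4i2, Cox6a2 and Ndufa4l2. Cox7a2l was singled out after its values were seen.

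Complex V makes ATP. Its members with the highest mean levels in the brain were Atp5e, the epsilon subunit, Atp5l, subunit g, and Atp5h, subunit d, and the lowest was Atp5s at 0.0768. Atp5e, Atp5l and Atp5h were also the highest in both blood tables. Atp5e was 2.59 in microglia-like and 13.2 in choroid plexus-like cells, Atp5l 1.82 and 15.9, and Atp5h 1.86 and 12.3. Atp5l was higher in naive neutrophils than in B-like cells, at 6.63 and 4.40, although the median log2 difference between these clusters was -1.13 over the nuclear genes and 8 of 71 were higher. The other 7 were Cox8a, Ndufb9, Ndufa7, Ndufa3, Uqcrq, Cox6b1 and Ndufb7. No mt- gene of 13 was higher in neutrophils than in B-like cells, with a median of -3.02, against -1.05 over all genes.

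ATP synthase subunit c, which forms the rotor ring, is coded by Atp5g1, Atp5g2 and Atp5g3, whose mature proteins are the same. Their use set the choroid plexus-like cluster apart. Atp5g1 gave 529 of the 839 counts of the 3 genes there (63.1%, 95% exact binomial interval 59.7 to 66.3), against 20.7% to 27.4% in the other brain clusters. Atp5g2, which supplied 44.6% to 58.0% in those clusters, supplied 12.9% in the choroid plexus-like cells. The level of Atp5g1 was 21.2 in choroid plexus-like and 1.11 in microglia-like cells. A cluster of 7 choroid marker-bearing cells in the blood table of metastasis-bearing mice had 57.7% (45.4 to 69.4). Among blood clusters of at least 50 cells, monocytes had the largest Atp5g1 share, 33.4% (30.9 to 36.0) in naive and 31.0% in metastasis-bearing mice, and neutrophils had 17.6% and 20.2%. Naive platelet-like cells gave 0 of 70 counts to Atp5g1 and 95.7% to Atp5g2. These intervals, like the others given, cover counting error only, and the 3 genes were singled out after their values were seen.

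**Figure D3:**
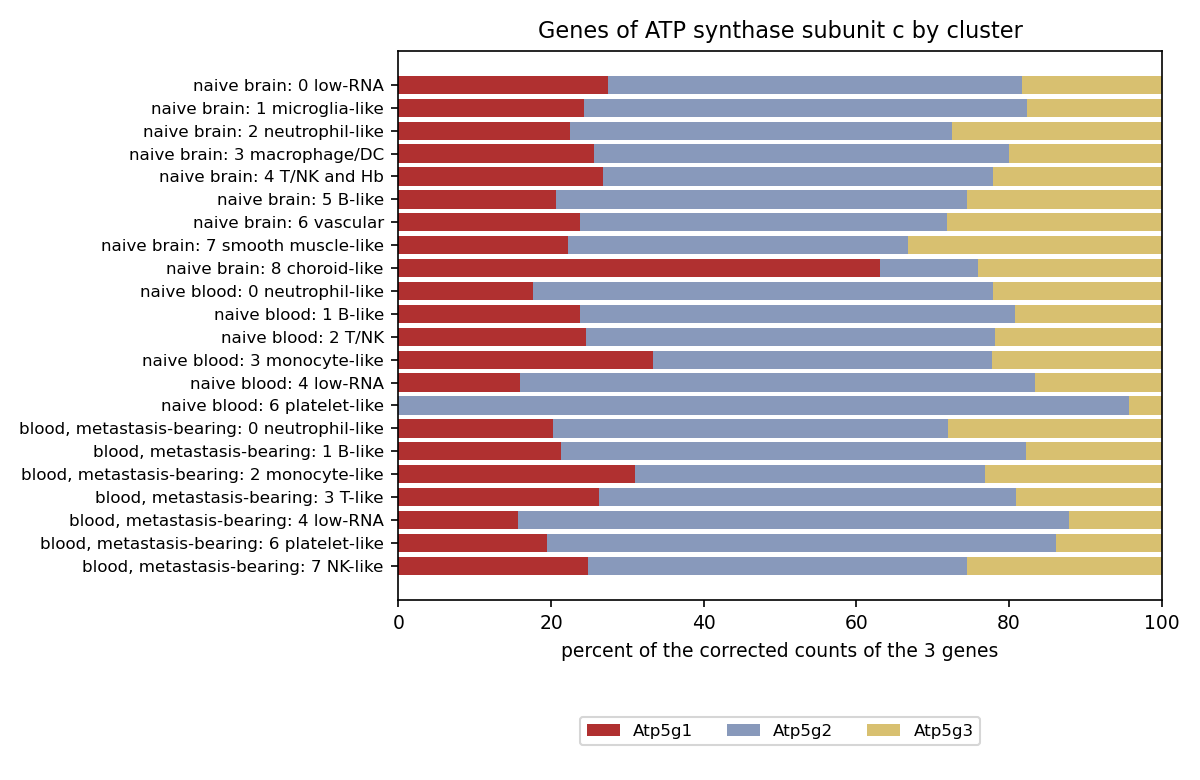
Percent of the corrected counts of Atp5g1 (red), Atp5g2 (blue) and Atp5g3 (yellow) for each cluster (vertical axis) of the 3 tables. Atp5g1 takes 63.1% in the choroid-like cluster of the brain and 20.7% to 27.4% in the other brain clusters.

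The tissue-restricted genes were found in few brain cells. Cox4i2, the second form of complex IV subunit 4, which is known from lung and from vessel walls, was at 0.305 in cluster 6, with 66 counts in 35 of 301 cells (11.6%), and at 0.231 in smooth muscle-like cells (8 of 47). In microglia-like cells, which are not known to use it and have a similar depth, 2 of 1232 cells (0.162%) held a count. By sample, cluster 6 had 0.392, 0.232, 0.280 and 0.256. Pericyte genes were often found in the 35 cells: Rgs5 was found in 94.3% of them and in 20.3% of the 266 others, Vtn in 85.7% and 6.77%, and Higd1b in 77.1% and 4.14%. Smooth muscle and endothelial genes were also more often found in them, Acta2 in 57.1% against 10.2%, Cldn5 in 54.3% against 29.7% and Flt1 in 88.6% against 70.7%. Of the fibroblast genes, Col1a2 was found in 45.7% against 25.6% and Dcn in 22.9% against 16.9%. All 35 also held Cox4i1. Their median depth was 16472 raw molecules, against 8246 in the others, and the part of depth or of doublets in these shares was not tested.

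Ndufa4l2, a paralogue of Ndufa4 known to be induced in low oxygen, followed the same cells. It stood at 0.532 in cluster 6, with 115 counts in 44 of 301 cells (14.6%), and the samples had 0.784, 0.359, 0.397 and 0.405. CCR2+/- sample 1 was the highest for both genes, and the 10 mural marker genes summed to 32.4 in that sample and to 13.7, 13.7 and 12.3 in the others; their part in the difference between samples was not tested. Of the 35 cells with Cox4i2, 82.9% held Ndufa4l2, against 5.64% of the others. In smooth muscle-like cells no Ndufa4l2 count was found, and in microglia-like cells 0 of 1232 cells held one, which allows a share of up to 0.244% with a count; this does not limit the share of cells that express the gene below detection.

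Cox6a2, the heart and muscle form of subunit 6a, stood at 0.609 in the macrophage and dendritic cluster 3, where its 86 counts lay in 6 of 191 cells (3.14%). 5 of these 6 cells held Ccr9, against 0 of the 185 others, 5 held Runx2, against 8.65%, and all 6 held Ly6d, against 7.03%; these 3 genes mark plasmacytoid dendritic cells and were looked at after the values of Cox6a2 were seen. The sample levels were 0.110, 0.425, 1.99 and 0.50, and the highest rested on 48 counts in 2 cells. In microglia-like cells 64 of 1232 (5.19%) held Cox6a2, 0 of these 64 with Ccr9, and the samples stood at 0.0887, 0.167, 0.0658 and 0.0516.

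The choroid plexus-like cluster held 3 further restricted genes of complex IV beside their common partners. Cox6b2, known from testis, stood at 3.37 with a count in 28 of 29 cells, and the samples had 3.43, 2.77, 4.18 and 2.47. Cox8b, known from heart and muscle, stood at 3.13 in 11 of 29 cells, with 4.0, 1.11, 1.97 and 5.11. Cox7a1, also known from heart and muscle, stood at 0.683 in 12 of 29 cells, with 0.428, 0, 0.812 and 1.23. The common partners in the same cluster were at 7.55 for Cox6b1, 30.9 for Cox8a and 9.92 for Cox7a2. In microglia-like cells 27 of 1232 (2.19%) held Cox6b2 and 2 held Cox8b. Cox6b2 was more often found in cluster 6, in 34 of 301 cells (11.3%), and in cluster 3, in 19 of 191 (9.95%). These shares come from cells of unlike depth. The medians were 53703 raw molecules in cluster 8, 10044 in microglia-like cells, 8710 in cluster 6 and 11874 in cluster 3.

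Cox6b2 was also found in blood monocytes and platelet-like cells, among others. Cox6b2 had a count in 8.96% of naive monocyte-like cells (32 of 357) and in 12.1% of those of metastasis-bearing mice (97 of 804). Neutrophils had 0.171% and 0.622% and B-like cells 0.885% and 1.01%, at lower depth. The monocyte-like cells had medians of 11709 and 13757 raw molecules, the neutrophils 2963.5 and 3185 and the B-like cells 4810 and 4258.5. By level, Cox6b2 was highest in the platelet-like cells among the blood clusters of at least 50 cells. It stood there at 0.478 in naive and 0.715 in metastasis-bearing blood, from 3 of 51 and 4 of 50 cells. Their medians were 770 and 913 raw molecules.

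**Figure D4:**
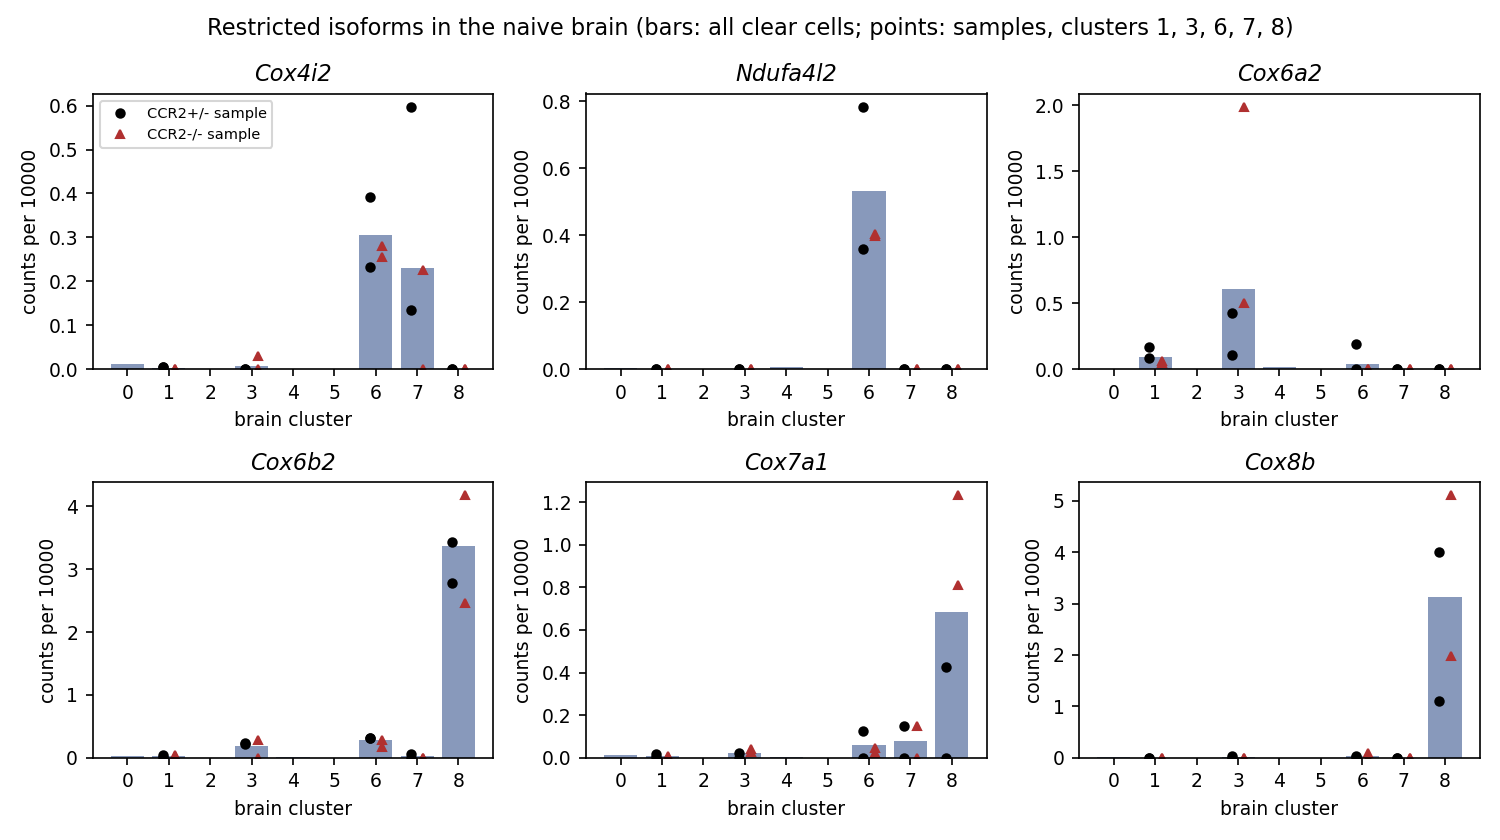
Levels (corrected counts per 10000, vertical axes with different scales) of 6 restricted genes in the brain clusters 0 to 8 (horizontal axis); bars are all clear cells of a cluster, and points are the 2 CCR2+/- (black) and 2 CCR2-/- (red) samples for clusters 1, 3, 6, 7 and 8. Cox4i2 and Ndufa4l2 are highest in cluster 6, Cox6a2 in cluster 3, and Cox6b2, Cox7a1 and Cox8b in cluster 8, where Cox6b2 stands at 3.37.

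Other lists of mitochondrial and energy genes followed the cell types less evenly. Between choroid plexus-like and microglia-like cells the median log2 difference was 2.36 over the nuclear genes (72 of 75 higher) and 2.08 over the mt- genes (13 of 13 higher), against -1.95 over all genes. The 4 genes of complex II, succinate dehydrogenase, summed to 7.99 in choroid plexus-like and 2.85 in microglia-like cells, and the 13 genes of the tricarboxylic acid cycle to 21.6 and 7.14. Genes of the mitochondrial ribosome summed to 56.2 and 30.1. The 17 regulators of mitochondrial biogenesis, among them Tfam and Nrf1, summed to 3.25 and 4.87, the reverse order. With the depth correction, the median number of genes with a count went from 6270 to 2115 in choroid plexus-like cells. In microglia-like cells it went from 2997.5 to 2908.5. The part of this loss in the sum of the regulators and in the median over all genes was not tested. The 14 glycolysis genes summed to 37.3 in naive neutrophils, 15.9 in B-like and 33.4 in monocyte-like cells. Naive neutrophils thus stood above B-like cells for glycolysis and below them for both genomes of oxidative phosphorylation. In metastasis-bearing mice the Het and Hom glycolysis sums were 32.4 and 35.2 in neutrophils and 38.5 and 41.3 in monocyte-like cells. The shallow platelet-like cells of naive blood had 41.6 and 44.2.

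The comparison of CCR2-/- with CCR2+/- brains asks whether these genes move in the cells of a brain that lacks CCR2, the receptor through which monocytes leave the bone marrow. No member passed the test in any of the 5 clusters with at least 20 cells in every sample, by limma with Benjamini-Hochberg adjustment over all genes tested at 0.05. In microglia-like cells 0 of 73 members tested were called, against 0.485% of 10713 genes, and 6 had an unadjusted p under 0.05, against 8.88% of genes. The low-RNA cluster 0 gave 0 of 71 (0.101% of genes called), with 2 at an unadjusted p under 0.05 (5.51%). Cluster 3 gave 0 of 72 (0.158%), with 1 unadjusted (8.27%), cluster 4 gave 0 of 70 (0.0141%), with 1 unadjusted (3.7%), and cluster 6 gave 0 of 74 (0.137%), with 0 unadjusted (7.75%). The members left out, under 20 counts in a cluster, were among Cox4i2, Cox6a2, Cox6b2, Cox7a1, Cox8b, Ndufa4l2 and Atp5s. With all samples, none of the 13 mt- genes was called in these clusters either. The differences of the mt- genes, and whether any of them passed, changed with the sample left out. In cluster 0 their median log2 difference was 0.21 with all samples and 0.38 without CCR2+/- sample 1. In cluster 6 it was -0.18 with all samples and -0.38 without CCR2+/- sample 2. Leaving out either sample leaves CCR2+/- with 1. With 2 samples against 2, an exact permutation test of a single value cannot go below p = 0.33.

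The nuclear sums themselves lay close together. Microglia-like cells had 90.2, 88.2, 87.7 and 89.9, so the genotypes overlapped. Cluster 0 had 88.0, 89.7, 89.9 and 88.1, cluster 3 163, 152, 158 and 155, and cluster 6 204, 181, 197 and 187, all with overlap. In cluster 4 the values were 175, 166, 184 and 181, with both CCR2-/- samples above both CCR2+/- samples. The median log2 difference over members was -0.0011 in microglia-like cells and 0.13 in cluster 4. Over all genes the medians were -0.04 and 0.05.

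In microglia-like cells the member with the lowest adjusted p was Cox6a2, at the sample levels given above, with a log2 difference of -1.01 and a standard error of 0.35 (limma, adjusted p = 0.306). Atp5a1, the alpha subunit of ATP synthase, stood at 2.33, 2.43, 2.07 and 1.87, a log2 difference of -0.27 that did not pass (limma, adjusted p = 0.329). Uqcrfs1, the Rieske iron-sulphur subunit of complex III, stood at 0.813, 0.790, 0.674 and 0.607, a difference of -0.32 (limma, adjusted p = 0.385). Both were lower in both CCR2-/- samples. Atp5h stood at 1.78, 1.62, 2.00 and 2.00, a difference of 0.24 (limma, adjusted p = 0.473), higher in both CCR2-/- samples. In cluster 4 Ndufs4, an accessory subunit needed for a stable complex I, stood at 0.665, 0.393, 1.10 and 1.27, a difference of 1.17 with a standard error of 0.33 (limma, adjusted p = 0.989).

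Cox6a2 was the 1 member whose call depended on the setting. In cluster 3 its log2 difference was 2.04 with a standard error of 0.60 (limma, adjusted p = 0.313), and it was called with no filter on low counts (limma, adjusted p = 0.0153) and without CCR2-/- sample 2 (limma, adjusted p = 8.97e-10). That last fit leaves CCR2-/- with 1 sample, assumed to vary like the CCR2+/- samples, whose value comes from 2 cells. The value rests on the 6 cells described above. The plasmacytoid marker list summed to 12.4, 11.6, 15.2 and 13.5 in cluster 3, higher in both CCR2-/- samples, and its member Bst2 stood at 5.6, 6.08, 7.13 and 7.44. The sum of Ccr9, Runx2 and Ly6d was 3.32, 1.20, 2.99 and 2.73, which overlapped. The part of these cells in the difference was not tested. Other lists in this cluster also separated the genotypes: Ly6c-low monocyte genes summed to 8.94, 6.19, 21.4 and 18.3 and Ly6c-high monocyte genes to 16.0, 17.7, 6.43 and 10.5. The 8 genes of border-associated macrophages summed to 27.1, 16.0, 10.8 and 14.5. The part of this makeup in the members' values was not tested.

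The ratio of nuclear to mitochondrial counts separated the genotypes in 3 of the 5 clusters, in different directions. The mt- sum also separated them in these 3 clusters, and the nuclear sum in cluster 4 alone. Such a separation of 2 samples from 2 cannot go below p = 0.33 in an exact permutation test. In microglia-like cells the mt- sum was 201, 204, 209 and 249 and the ratio 0.450, 0.433, 0.419 and 0.361, a log2 difference of -0.18. The median depth had the same order, with 9267, 9673, 9874 and 10994.5 raw molecules, and the 5 red-cell genes summed to 0.705, 3.43, 14.2 and 5.22; the part of either was not tested. In cluster 4 the mt- sum was 446, 560, 372 and 443 and the ratio 0.393, 0.297, 0.496 and 0.409, a difference of 0.40. In cluster 3 the mt- sum was 263, 280, 251 and 234 and the ratio 0.619, 0.544, 0.631 and 0.661, a difference of 0.15. The difference shrank to -0.07 in microglia-like cells without CCR2-/- sample 2, and to 0.20 in cluster 4 and 0.06 in cluster 3 without CCR2+/- sample 2. In cluster 6 the ratio, 0.402, 0.487, 0.476 and 0.568, overlapped, as it did in the low-RNA cluster 0, at 0.0538, 0.0682, 0.0493 and 0.0559.

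In cluster 4 the sums of marker lists also differed between the samples. T cell genes (7 of 7 detected) summed to 29.6, 15.4, 33.2 and 30.3, higher in both CCR2-/- samples, and the 5 genes of type 2 innate lymphoid cells to 7.75, 16.8, 5.28 and 6.70, lower in both. The red-cell list overlapped. Within the members, the nuclear complex IV genes summed to 48.1, 46.5, 51.7 and 52.8 and those of complex V to 53.6, 53.3, 58.7 and 55.1, both without overlap, while those of complex I, from 50.5 to 55.4, and of complex III, from 16.2 to 18.6, overlapped. The part of cell makeup in these sums was not tested, and with 31 to 86 cells per sample fewer cells of a type and less RNA per cell cannot be told apart.

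**Figure D5:**
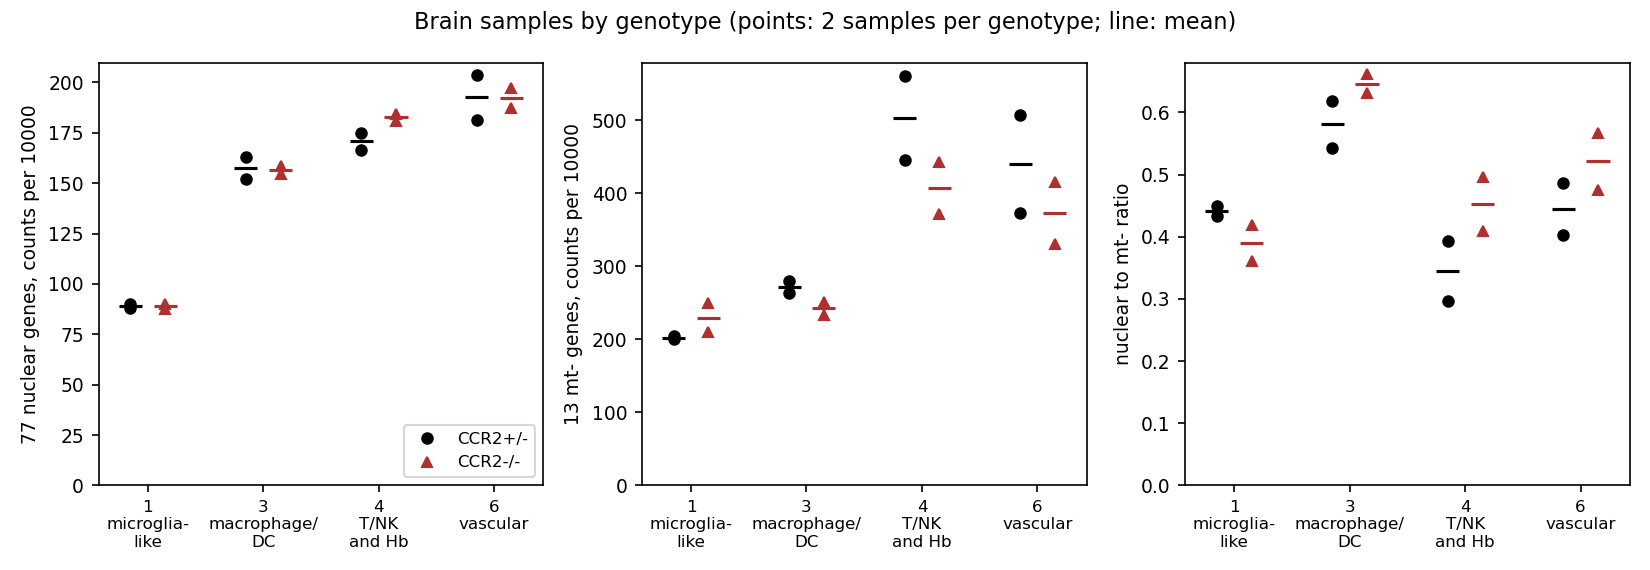
Nuclear sum, mt- sum (corrected counts per 10000) and their ratio (vertical axes, linear from 0) in 4 brain clusters (horizontal axis), with 1 point per hashed sample, black for CCR2+/- and red for CCR2-/-, and a line at the mean of 2 samples. The genotypes do not overlap for the nuclear sum in cluster 4 (175 and 166 against 184 and 181). For the mt- sum and for the ratio they do not overlap in clusters 1, 3 and 4.

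Other pathway lists gave 1 call between the genotypes. Ucp2, a carrier of the inner mitochondrial membrane, was lower in CCR2-/- microglia-like cells by a log2 difference of -0.43 (limma, adjusted p = 0.0350). It was the 1 of 7 genes of uncoupling and exchange that passed, where 0.485% of all genes did. The call was lost in 6 of 12 alternatives, among them the fit without a mean-variance trend (limma, adjusted p = 0.668), cells of near-equal depth (0.128) and leaving out any sample but CCR2-/- sample 1 (0.0502 to 0.537); the log2 difference ran from -0.49 to -0.36. No gene passed in the 5 clusters among the 4 of complex II, the 6 electron carriers such as Cycs, the 14, 6, 20 and 4 assembly factors and inhibitors of complexes I, III, IV and V, the 17 regulators of biogenesis, the 15 import genes, the 13 of the tricarboxylic acid cycle, the 14 of glycolysis and the 78 of the mitochondrial ribosome. The 13 tricarboxylic acid cycle genes summed to 7.39, 7.26, 6.93 and 7.02 in microglia-like cells and to 9.02, 9.94, 7.43 and 8.52 in cluster 6, lower in both CCR2-/- samples each time; in clusters 0, 3 and 4 these sums overlapped.

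In blood each condition was 1 hashed sample, so differences have no replicate check and no test, and a gene is counted as different when it passes 1.5-fold with at least 20 counts in the higher sample. The comparisons share samples: each blood sample enters both a genotype and a metastasis comparison. Members of a comparison come from the same 2 samples and share their totals, so a count of members nominally higher or lower is no replication.

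Naive neutrophil-like cells had higher levels in the Hom than in the Het sample. The nuclear sum was 90.6 in Het (795 cells) and 111 in Hom (377 cells), a ratio of 1.22 (95% counting interval 1.20 to 1.25), and the mt- sum 70.9 and 81.5. Of 68 members 59 were nominally higher and 8 passed 1.5-fold upward, against 17% of all genes, and 1 passed downward, against 9.89%, so the share past 1.5-fold was not above that of genes at large. The median log2 ratio was 0.35 over members and 0.18 over all genes.

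The 8 were subunits of complex I apart from Atp5o.1, the stalk subunit of ATP synthase. Ndufb2 was 0.0891 in Het and 0.296 in Hom, 3.33 times higher (2.07 to 5.41), Ndufa10 2.27 times (1.39 to 3.71), Atp5o.1 1.69 times (1.24 to 2.30), Ndufc2 1.69 times (1.04 to 2.73) and Ndufc1 1.59 times; the other 3 were Ndufa1, Ndufb5 and Ndufb3. Ndufa9 was lower, at 0.485 times (0.180 to 1.12), an interval that includes equal levels. The neutrophil marker list summed to 2461 in Het and 1829 in Hom, and its part was not tested. Cells with a count of Mmp8, a protease of neutrophil granules, had nuclear sums of 82.8 and 107 and cells without it 100.2 and 116, so the Hom sample was higher within both. Depth was 3036 and 2827 raw molecules, and in cells of near-equal depth the sums were 87.3 and 109.

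The other naive cell types differed less. In B-like cells the sum was 151 in Het and 160 in Hom, and 0 of 70 members passed 1.5-fold, against 5.56% of genes upward and 2.28% downward. In the T and NK cluster it was 153 and 164, and Ndufs1, the largest iron-sulphur subunit of complex I, was the 1 of 70 past 1.5-fold, at 1.56 times, against 11.1% upward and 2.78% downward. NK cell genes summed to 25.6 and 55.9 in that cluster; their part was not tested. Monocyte-like cells had 205 and 204, with 0 of 70 past 1.5-fold, against 5.09% upward and 10.3% downward.

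In metastasis-bearing mice the Hom and Het neutrophils stood close together, at 107 and 106. Ndufb2 was again higher in Hom, at 0.102 and 0.211, 2.06 times (1.35 to 3.20), and Ndufa5 and Ndufa9 were lower, at 0.476 and 0.586 times, the 3 of 70 members past 1.5-fold against 6.07% of genes upward and 6.15% downward. B-like cells had 142 in each, and Atp5s, known as a coupling factor of ATP synthase, was the 1 of 71 past 1.5-fold, at 0.507 times, against 4.22% upward and 6.11% downward. Monocyte-like cells had 230 in Het and 247 in Hom, with 62 of 71 members nominally higher. The median log2 ratio there was 0.11 over members and -0.04 over all genes. Of these members 0 passed 1.5-fold, against 3.35% of genes upward and 8.19% downward. T-like cells had 141 and 153, with Ndufb6 at 1.53 times and Ndufs4 at 1.66 times as the 2 of 70 past 1.5-fold, against 7.38% upward and 6.34% downward.

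Between metastasis-bearing and naive mice, neutrophils of the Het samples went from 90.6 to 106, a ratio of 1.17 (1.15 to 1.19), while their mt- sum went from 70.9 to 67.6. Of 70 members 7 passed 1.5-fold upward and 0 downward, against 20.5% and 7.01% of genes. 6 were complex I subunits, led by Ndufb5 at 2.24 times (1.67 to 3.03), Ndufa10 at 2.21 times, Ndufv1, which holds the NADH site, at 1.82 times and Ndufa5 at 1.66 times. The others were Atp5c1, the gamma subunit of ATP synthase, at 1.55 times, Ndufc2 and Ndufv2. In the Hom samples neutrophils went from 111 to 107. There Ndufv1 was again higher, at 1.92 times, as was Ndufa8 at 1.71 times, and Atp5o.1 and Uqcrb were lower, at 0.661 and 0.584 times, of 68 members, against 13.7% of genes upward and 8.98% downward.

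B-like and monocyte-like cells moved in opposite directions with metastasis. In B-like cells the median log2 ratio was -0.14 over members and -0.02 over all genes in Het, and -0.16 and -0.07 in Hom. In monocyte-like cells it was 0.13 and -0.16 in Het, and 0.29 and -0.10 in Hom. The B-like sum went from 151 to 142 in Het, with 54 of 71 members nominally lower and 0 past 1.5-fold (5.93% of genes upward, 5.07% downward), and from 160 to 142 in Hom, with 63 of 71 lower and Atp5s alone past 1.5-fold (3.45% and 8.15%). The monocyte-like sum went from 205 to 230 in Het, with Ndufv1 at 1.55 times the 1 of 71 past 1.5-fold (5.58% and 17.8%). In Hom it went from 204 to 247, with 68 of 71 members nominally higher. Ndufb10, a complex I subunit, went from 1.95 to 3.14 in Hom, 1.61 times (1.36 to 1.91), and Cox6b2 and Ndufa10 also passed 1.5-fold (7.48% and 16%). The monocyte-like cells were deeper in metastasis-bearing mice, with medians of 13254 against 10772 raw molecules in Het and 14413 against 12085.5 in Hom. In the cells of near-equal depth the Het difference turned to -0.13 on the log2 scale, and the Hom difference went from 0.28 to 0.082, over 31 and 27 cells. Ly6c-high monocyte genes summed to 59.7 in naive and 180.0 in metastasis-bearing Het cells and to 73.0 and 145 in Hom cells, and their part was not tested.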

How the data were processed

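Single-cell expression was analysed in 8 hashed samples of 1 pooled library. Reads were processed with Cell Ranger 3.1 on mm10, per the submitters' processing notes. The authors deposited natural log (ln) values of depth-corrected counts, and cluster and hashtag group in columns of other, non-numeric labels, per the file headers. Counts were rebuilt as whole numbers to within 2.18e-11. The deposited hashtag counts selected cells with a barcode in 1 table and at least 0.5 of hashtag counts from that table's samples. Raw molecule counts per cell came from the deposited tables.

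Counts were summed per cluster and sample and scaled per 10000. Brain genotypes went through limma, version 3.58.1, under R 4.3.3 (log2 with a pseudocount of 1, at least 20 counts over all samples, 20 cells per sample, mean-variance trend, adjusted p 0.05), tested on simulated data. Blood has 1 sample per condition and no test. Ratio intervals are 95% counting intervals. Python 3.11.15 and scipy 1.17.1 were used. Alternatives were all deposited cells, a hashtag share of 0.8, no filter, a pseudocount of 0.5, totals without mt- genes, cells weighted equally, no trend, each sample left out, 50 counts in blood, and, added after seeing the data, cells of near-equal depth.

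Genes named are the called members, the 3 highest and 1 lowest of each complex, the 8 most variable, the isoform pairs, up to 5 blood members per direction past 1.5-fold, the mt- genes and up to 4 genes of each other list. Others were chosen after their values were seen. The members and lists were chosen with earlier results of these data known. Promoters of 63 of the 77 members were used, and those of the others were not used here.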

Additional observations from a re-analysis of the deposited data

Results flagged for a closer look

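The ratio of the nuclear genes to the mt- genes moved in opposite directions with the genotype in different brain clusters, with both samples of a genotype on 1 side each time. The log2 difference, CCR2-/- minus CCR2+/-, was -0.18 in microglia-like cells, 0.15 in the macrophage and dendritic cluster 3 and 0.40 in the T and NK cluster 4. The difference between clusters was not tested.

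The summed nuclear genes of neutrophils moved in opposite directions with metastasis, with a log2 difference of 0.22 between the Het samples and -0.048 between the Hom samples. Each condition was 1 sample, and the difference was not tested.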

How the results depend on the processing

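The count of members called in the brain stayed at 0 in clusters 0, 1, 4 and 6 under every alternative run; in cluster 3 it was 1, Cox6a2, with no filter beyond 1 count and without CCR2-/- replicate 2. Over all genes, calls were 10 in cluster 0 (0 to 32 under the alternatives), 52 in cluster 1 (0 to 126), 11 in cluster 3 (0 to 238), 1 in cluster 4 (0 to 4) and 13 in cluster 6 (0 to 221). The cause of the changes below was not tested. In cells of near-equal depth, the members past 1.5-fold numbered 10 in naive monocytes, 1 in neutrophils, 5 in monocytes and 8 in T cells between Hom and Het of metastasis-bearing mice, 1 in B cells and 9 in monocytes of Het and 7 in neutrophils and 0 in B cells of Hom with metastasis. The log2 sums there were 0.32 (naive neutrophils) and -0.11 (naive monocytes), 0.062 (T), -0.13 (monocytes, Het, reversed), 0.082 (monocytes, Hom) and -0.094 (neutrophils, Hom). In brain cluster 3 the summed members moved to 0.11 and the ratio to mt- genes to 0.42, Cox6a2 to 0.354, and in cluster 6 Cox4i2 to 0.138 and Ndufa4l2 to 0.247. With all deposited cells, the counts were 0 in naive T and NK cells, 1 in naive monocytes, 0 in T cells and 1 in monocytes of metastasis-bearing mice and 3 in Het neutrophils, and the log2 sums 0.26 (naive neutrophils), 0.13 (monocytes, Hom against Het), 0.19 (Het neutrophils), 0.11 (Het monocytes), 0.25 (Hom monocytes) and 0.14 (brain cluster 4); Cox6a2 was 0.442 and Ndufa4l2 0.431. With at least 50 counts in the higher sample, the counts were 4 in naive neutrophils, 1 in neutrophils and 0 in B cells of metastasis-bearing mice and 0 in Hom B cells with metastasis. With a hashtag share of 0.8 that last count was 0 and the cluster 4 sum 0.047, and without mt- genes in the total the cluster 0 sum was 0.041. With 1 brain sample left out, the ratio difference ran from -0.29 to -0.07 in microglia-like cells, 0.06 to 0.25 in cluster 3 and 0.20 to 0.60 in cluster 4. Restricted genes at few counts, and 1 sample per blood condition, limit the precision. The near-equal depth fit could not be made for cluster 0, which held 12 such cells. No paired analysis was possible because the hashtag numbers of the genotypes are not shared.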
